A study of Homo sapiens with 8 samples.

Results

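The late cornified envelope genes of groups 2 and 3 (LCE2A, LCE2B, LCE2C, LCE2D, LCE3A, LCE3C, LCE3D and LCE3E) and PRR9 were 9 of the 25369 genes in the deposited expression table, and 8 of the 9 were detected. They were taken by gene name, and the set was put together with their difference between the groups of this study already known. Their levels in these groups are therefore given as a description without p-values, and counts of calls among them stand only beside the share called over all genes. RNA was sequenced from EPC2-hTERT cells, human esophageal epithelium kept in long-term culture by telomerase. The 4 HIF1A-KD libraries came from a stable line carrying a lentiviral short hairpin RNA against HIF1A, and the 4 shCtrl libraries came from a stable line carrying a control hairpin. HIF1A encodes HIF-1α, the subunit of the HIF-1 transcription factor that oxygen destabilises. Both lines were grown in the same way at an air-liquid interface, with 2 days to confluence on a porous (0.4 µm) support, 5 days in 1.8 mM calcium and 4 days under air. A vehicle and the hydroxylase inhibitor dimethyloxalylglycine are named in the labels' protocols, and neither is assigned to a library. The labels do not say how many hairpins or clones stand behind each line, nor whether libraries 1 to 4 came from separate cultures. The p-values below then measure only the spread between these libraries, which may be technical.

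The cornified envelope is the protein shell that replaces the plasma membrane of squamous cells as they end their differentiation, and transglutaminases crosslink its precursors. Late cornified envelope (LCE) genes encode small precursors that enter the shell late and lie in groups within the epidermal differentiation complex. Groups 1 and 2 are known mainly from normal skin, whereas group 3 is low there and is induced by barrier injury and in psoriasis, and its proteins have been reported to kill bacteria. PRR9 encodes a proline-rich protein of the same complex whose role is little known.

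The 110 bases before the annotated start are shown for the 4 LCE2 genes, LCE3C, LCE3D, LCE3E and PRR9, because 7 of them share a word that few other upstream windows hold and because LCE3C, which was not detected, holds this word as the abundant LCE3D and LCE3E do. They are RefSeq sequences of GRCh38.p14, written 5′ to 3′ on the strand of the gene, and capitals mark 4 words on either strand. These are the shared word CCTGGTTGTG, the letters ACGTG and the letters GCGTG (each a core of the hypoxia response element), and ATAAAAG, which resembles a TATA box.
LCE2A (chr1:152698235-152698344, plus strand): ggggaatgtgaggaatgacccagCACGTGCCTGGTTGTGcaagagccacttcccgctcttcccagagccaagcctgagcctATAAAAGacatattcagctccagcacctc
LCE2B (chr1:152686013-152686122, plus strand): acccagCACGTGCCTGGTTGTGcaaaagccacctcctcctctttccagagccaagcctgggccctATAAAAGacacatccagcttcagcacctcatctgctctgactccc
LCE2C (chr1:152675169-152675278, plus strand): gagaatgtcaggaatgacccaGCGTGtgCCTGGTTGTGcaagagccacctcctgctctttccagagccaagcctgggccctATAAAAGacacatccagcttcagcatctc
LCE2D (chr1:152663270-152663379, plus strand): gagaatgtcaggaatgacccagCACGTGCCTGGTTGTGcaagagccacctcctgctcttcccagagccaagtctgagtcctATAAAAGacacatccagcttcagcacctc
LCE3C (chr1:152600124-152600233, plus strand): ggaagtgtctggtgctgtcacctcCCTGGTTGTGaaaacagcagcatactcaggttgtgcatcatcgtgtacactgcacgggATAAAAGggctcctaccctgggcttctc
LCE3D (chr1:152580517-152580626, minus strand): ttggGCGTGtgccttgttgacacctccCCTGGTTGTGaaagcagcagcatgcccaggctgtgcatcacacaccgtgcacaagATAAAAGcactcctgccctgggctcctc
LCE3E (chr1:152566781-152566890, minus strand): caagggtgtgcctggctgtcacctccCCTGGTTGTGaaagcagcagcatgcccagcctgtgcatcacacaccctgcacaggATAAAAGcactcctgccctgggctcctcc
PRR9 (chr1:153217474-153217583, plus strand): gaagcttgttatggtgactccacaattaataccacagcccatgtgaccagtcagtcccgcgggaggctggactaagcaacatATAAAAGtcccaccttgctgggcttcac
The word CCTGGTTGTG was found in the 250 bases upstream of all 4 LCE2 genes and of LCE3C, LCE3D and LCE3E, with both strands searched. It is the longest word that at least 7 of the 9 windows share, so it was picked from the members' own sequences, and it was present in 20 of 35116 RefSeq windows (0.057%), 7 of them members. In those 7 windows it began 81 to 98 bases before the start, and 52 to 58 bases before an ATAAAAG stretch. ATAAAAG was present in the windows of all 9 genes and in 4.25% of all windows. Either core of the hypoxia response element was found upstream of 6 of the 9 genes, against 43.2% of all windows. ACGTG was upstream of LCE2A, LCE2B, LCE2D and LCE3A (18.5% of all windows), and GCGTG was upstream of LCE2C and LCE3D (32.2% of all windows). In LCE2A, LCE2B and LCE2D the letters ACGTG were part of the palindrome CACGTG, present in 6.34% of all windows and directly before the shared word. These letter matches are descriptions of sequence, and no binding was measured.

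The upstream stretches grouped the genes as their names do. Over 250 bases, pairs of LCE2 genes were identical at 79.2% to 92.4% of positions and pairs of LCE3C, LCE3D and LCE3E at 68.4% to 74.8%. LCE2 with LCE3 pairs were identical at 60.0% to 64.0%, and PRR9 at 58.4% to 63.6% with any of the others. The annotated start of LCE3A is the start of its coding sequence, so its window is of another kind and was left out of these comparisons. In the deposited table's hg19 coordinates the LCE genes run along chromosome 1 from LCE3E (152538175 to 152539229, minus strand) to LCE2A (152670840 to 152671918, plus strand). PRR9 (153190060 to 153191793, plus strand) begins 518142 bases beyond the end of LCE2A, past the LCE1 and SPRR genes. The transcripts have 2 exons with the coding sequence in the second, except those of LCE3A and LCE3C, which have 1 exon.

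The deposited values are RPKM (reads scaled by gene length and by the library's total reads), and the totals they imply ran from 38068729 reads in HIF1A-KD 4 to 65326907 in HIF1A-KD 2. HIF1A itself averaged 36.6 ± 16.3 RPKM in HIF1A-KD and 89.7 ± 29.2 RPKM in shCtrl (SD, n = 4 each). Its log2 change of −1.34 (SE 0.37) had an adjusted p of 0.319 in the unpaired limma test and 0.0253 with the library number as a block. A two-sided exact permutation test of HIF1A gave p = 0.0571, and the smallest p that 4 against 4 libraries can give is 0.0286. The call of HIF1A with the block was lost without HIF1A-KD 1, 2 or 4 or shCtrl 1 or 2. Library 1 stood apart in both groups, since all 8 detected members were above their group mean in HIF1A-KD 1 and in shCtrl 1. Squamous markers summed to 18800 to 23900 RPKM in HIF1A-KD and 19600 to 25800 RPKM in shCtrl. Of the leukocyte markers, PTPRC, CD3E and TPSAB1 were listed at 0 in all 8 libraries. CD68 of the same list spanned 19.0 to 85.7 RPKM in HIF1A-KD and 23.5 to 115 RPKM in shCtrl. LYZ and ITGAM reached at most 0.676 and 0.122 RPKM in HIF1A-KD, and at most 0.0967 and 0.0653 RPKM in shCtrl. In RNA from whole cultures, fewer cells of a type and less RNA per cell cannot be told apart.

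LCE3D and LCE3E were by far the most abundant of the genes and the most even in their difference between the lines. LCE3D, an envelope precursor of the injury-induced group, stood at 1102, 376, 146 and 165 RPKM in HIF1A-KD 1 to 4, against 7690, 1934, 746 and 815 RPKM in shCtrl 1 to 4. HIF1A-KD 1 was above shCtrl 3 and 4, so the groups overlapped, but each HIF1A-KD library was at 14.3% to 20.3% of the shCtrl library with its number. The mean was 447 ± 449 RPKM in HIF1A-KD and 2796 ± 3308 RPKM in shCtrl (SD, n = 4 each), a log2 change of −2.45 (SE 0.84). LCE3E, its neighbour in the complex, stood at 390, 157, 76.1 and 101 RPKM in HIF1A-KD 1 to 4, against 2968, 855, 355 and 443 RPKM in shCtrl 1 to 4. The pattern was that of LCE3D, with library 1 highest in both groups and HIF1A-KD 1 above shCtrl 3. The log2 change of LCE3E was −2.43 (SE 0.71), and the means were 181 ± 144 RPKM in HIF1A-KD and 1155 ± 1228 RPKM in shCtrl (SD, n = 4 each).

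LCE3A, which is counted over its coding sequence of 270 bases, was the least even. It stood at 16.6, 15.7, 7.85 and 1.46 RPKM in HIF1A-KD 1 to 4, against 248.5, 23.0, 4.95 and 10.4 RPKM in shCtrl 1 to 4. HIF1A-KD 3 was above shCtrl 3. This was the only case among the 8 detected genes in which a HIF1A-KD library exceeded the shCtrl library of its number. Pairing by number is not stated in the labels and is uncertain for numbers 3 and 4. The log2 change of LCE3A was −1.64 with an SE of 1.18, and without shCtrl 1 it was −0.50. LCE3C was listed at 0 in all 8 libraries, as was LCE3B. The upstream stretch of LCE3C in the reference genome carries the shared word and ATAAAAG at nearly the spacing of LCE3D and LCE3E. Whether these cells carry LCE3B and LCE3C was not tested. A count of 0 allows LCE3C up to 3 reads, which is 0.108 to 0.185 RPKM depending on the library and covers counting error only.

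**Figure D1:**
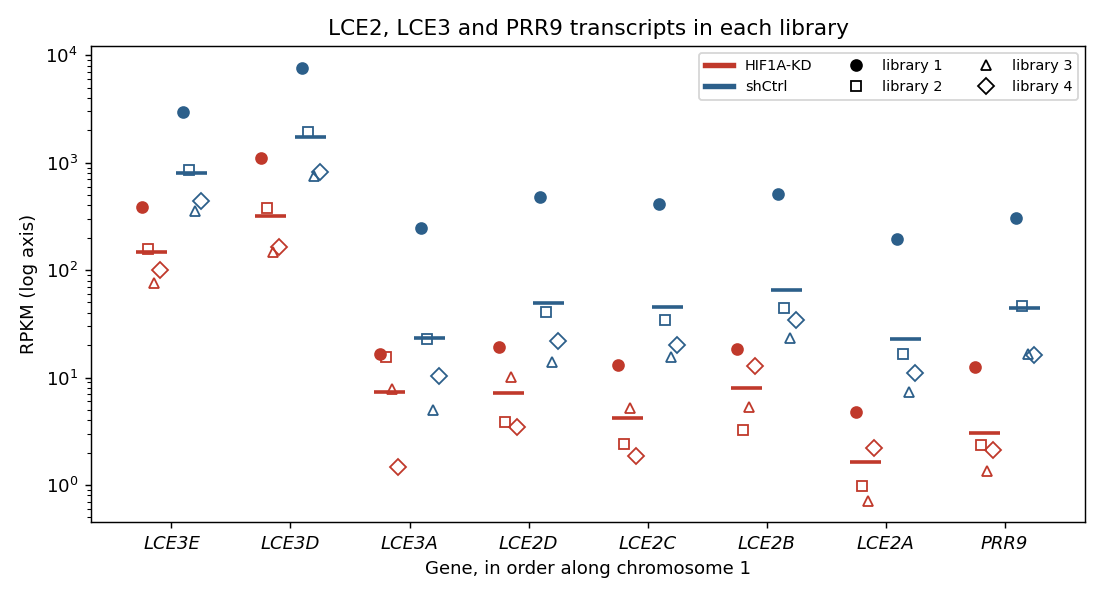
RPKM of the 8 detected genes on a log scale, with HIF1A-KD libraries left of shCtrl libraries and points marked by library number. Library 1 is the highest in both groups for all 8 genes, LCE3D reaches 7690 RPKM in shCtrl 1, and the groups of LCE2A, LCE2B, LCE2C and PRR9 do not overlap.

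The 4 LCE2 genes had lower levels than LCE3D and LCE3E in every library and were further apart between the lines in numbers 1 and 2. LCE2A stood at 4.78, 0.983, 0.716 and 2.22 RPKM in HIF1A-KD 1 to 4, against 196.9, 16.5, 7.38 and 10.996 RPKM in shCtrl 1 to 4. Every HIF1A-KD library was below every shCtrl library. The log2 change of LCE2A was −3.68 (SE 0.99), with means of 2.17 ± 1.85 RPKM in HIF1A-KD and 58.0 ± 92.7 RPKM in shCtrl (SD, n = 4 each). LCE2B stood at 18.5, 3.26, 5.30 and 12.9 RPKM in HIF1A-KD 1 to 4, against 509.9, 44.4, 23.5 and 34.3 RPKM in shCtrl 1 to 4. The groups of LCE2B did not overlap either, and the log2 change was −3.01 (SE 0.94).

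LCE2C and LCE2D, the pair nearer to the LCE3 genes, had a different order among the HIF1A-KD libraries. LCE2C stood at 13.2, 2.43, 5.25 and 1.86 RPKM in HIF1A-KD 1 to 4, against 412.7, 34.3, 15.4 and 20.3 RPKM in shCtrl 1 to 4. LCE2D stood at 19.4, 3.87, 10.1 and 3.49 RPKM in HIF1A-KD 1 to 4, against 484.1, 40.4, 13.9 and 21.7 RPKM in shCtrl 1 to 4. The groups of LCE2C did not overlap, whereas for LCE2D HIF1A-KD 1 was above shCtrl 3. The log2 changes were −3.41 (SE 1.02) for LCE2C and −2.76 (SE 1.04) for LCE2D.

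PRR9 had the lowest log2 change of the set. It stood at 12.5, 2.37, 1.34 and 2.14 RPKM in HIF1A-KD 1 to 4, against 303.5, 46.4, 16.4 and 16.2 RPKM in shCtrl 1 to 4. Every HIF1A-KD library was below every shCtrl library, at 4.11% to 13.2% of the shCtrl library with its number. The means were 4.58 ± 5.29 RPKM in HIF1A-KD and 95.6 ± 139 RPKM in shCtrl (SD, n = 4 each), with a log2 change of −3.80 (SE 0.98).

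**Figure D2:**
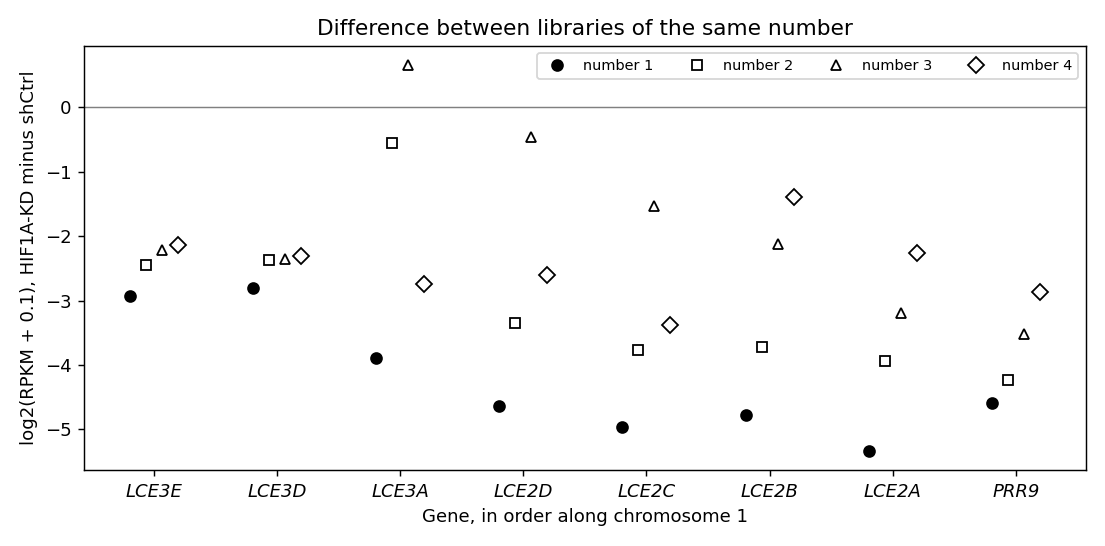
Difference in log2(RPKM + 0.1), HIF1A-KD minus shCtrl, between libraries of the same number for each of the 8 detected genes. LCE3D and LCE3E lie between −2.93 and −2.13 in all 4 numbers, LCE2A spans −5.34 to −2.26, and LCE3A in number 3 is the one value above 0.

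Over the 8 detected genes the median log2 change was −2.88, and with LCE3C at 0 the median over all 9 was −2.76, beside 0.0637 over the 11899 genes tested. The median over all 9 was −1.80 without shCtrl 1, the library with the highest values. By library number the median difference was −4.61, −3.54, −2.17 and −2.45 for numbers 1 to 4, and the HIF1A-KD library was lower for 8, 8, 7 and 8 of the 8 genes. Of the 8 genes, 7 were lower in all 4 numbers, beside 10.7% of all tested genes. The difference was larger in numbers 1 and 2 than in numbers 3 and 4, a comparison of single libraries without a test. Together the genes took 0.0939%, 0.0329%, 0.0147% and 0.0172% of all reads in HIF1A-KD 1 to 4, against 0.772%, 0.179%, 0.0707% and 0.0814% in shCtrl 1 to 4. The 95% Wilson intervals, which cover counting error only, were 0.093% to 0.0948% in HIF1A-KD 1 and 0.769% to 0.774% in shCtrl 1. LCE3D alone held 58.8% to 71.6% of these reads in HIF1A-KD and 60.8% to 65.8% in shCtrl.

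None of the 8 detected genes passed an adjusted p of 0.05 in the unpaired limma fit, which called 0.042% of all tested genes. With the library number as a block 5 of 8 passed, all lower in HIF1A-KD (LCE2A, LCE2C, LCE3D, LCE3E and PRR9), and that fit called 1.83% of all tested genes, with 1.09% lower and 0.74% higher. The members were chosen on this contrast, so nothing is read from either count. When single libraries were left out of the fit with the block, the count was 0 (HIF1A-KD 2), 1 (shCtrl 2) and 3 (HIF1A-KD 1 or shCtrl 1). The groups did not overlap, with HIF1A-KD lower, for 4 of the 8 (LCE2A, LCE2B, LCE2C and PRR9), beside 2.13% of all tested genes. Over 26 other settings of the fit all 208 log2 changes of the 8 genes were below 0. The block over all libraries and the filters cannot change these estimates. With the block, leaving out either library of a number takes that number out of the estimate, so some settings repeat each other. Nothing is read from this count of signs. The authors' deposited table, whose fold ratios were shrunk towards 1 and so cannot be set beside the values above, lists log2 changes of −3.23 for PRR9, −2.39 for LCE3D and −2.49 for LCE2A. The authors' deposited table has its smallest changes of the set at LCE2B (−1.29), LCE2D (−1.16) and LCE3A (−0.96). By a test that no source used here names, it lists 1229 of its 13627 genes with an adjusted p under 0.05. HIF1A and the 8 detected genes are among these, far more calls than in the fits above, and nothing is read from the members' part in them.

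Near-identical neighbours could exchange reads in the counting. Of the 50-base stretches of each GENCODE v29 transcript, 28.3% of LCE2C, 23.6% of LCE2B, 12.3% of LCE2D, 14.1% of LCE3E and a like share of LCE3D were found word for word in another gene. LCE2B and LCE2C shared 118 such stretches, and LCE3D and LCE3E shared 79 with each other. LCE2A, LCE3A, LCE3C and PRR9 shared no exact stretch of this length. Matches with mismatches were not searched, and the LCE2A transcript was identical to those of the other LCE2 genes at 78.9% to 80.0% of positions. Levels of LCE2B, LCE2C, LCE2D, LCE3D and LCE3E as single genes are uncertain at least to the extent of their shared stretches.

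LCE3D was above LCE3E, and LCE3E above LCE2B, in 4 of 4 HIF1A-KD and 4 of 4 shCtrl libraries, on the RPKM scale that accounts for gene length. Below these the order differed by group. LCE2B was above LCE2D in 1 of 4 HIF1A-KD libraries and in 4 of 4 shCtrl libraries, and LCE3A was above PRR9 in 3 of 4 HIF1A-KD and 0 of 4 shCtrl libraries. PRR9 was above LCE2A in 3 of 4 HIF1A-KD and 4 of 4 shCtrl libraries. The ratio of LCE3E to LCE3D was narrow, 0.354 to 0.612 in HIF1A-KD and 0.386 to 0.544 in shCtrl. The ratio of LCE2B to LCE2D was wide in HIF1A-KD, at 0.954, 0.843, 0.526 and 3.70 in libraries 1 to 4, against 1.05, 1.10, 1.69 and 1.58 in shCtrl 1 to 4. LCE2A and LCE2B were higher in HIF1A-KD 4 than in HIF1A-KD 3, and LCE2C and LCE2D were lower.

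Once each group mean was taken away, the genes still varied together across the 8 libraries, whether adjacent or not. Pearson's r of these deviations was 0.995 for LCE2C with LCE2D, 0.993 for LCE3D with LCE3E and 0.977 for LCE2A with LCE2B. It was lower for the adjacent LCE2B and LCE2C, at 0.867. The distant PRR9 had an r of 0.986 with LCE3E and 0.973 with LCE3D. Over all 28 pairs of the 8 genes r ran from 0.637 to 0.995. These are descriptions over 8 libraries that share library 1 as the high point in both groups, where the mean deviation of the 8 genes in shCtrl 1 was 2.85 on the log2 scale.

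**Figure D3:**
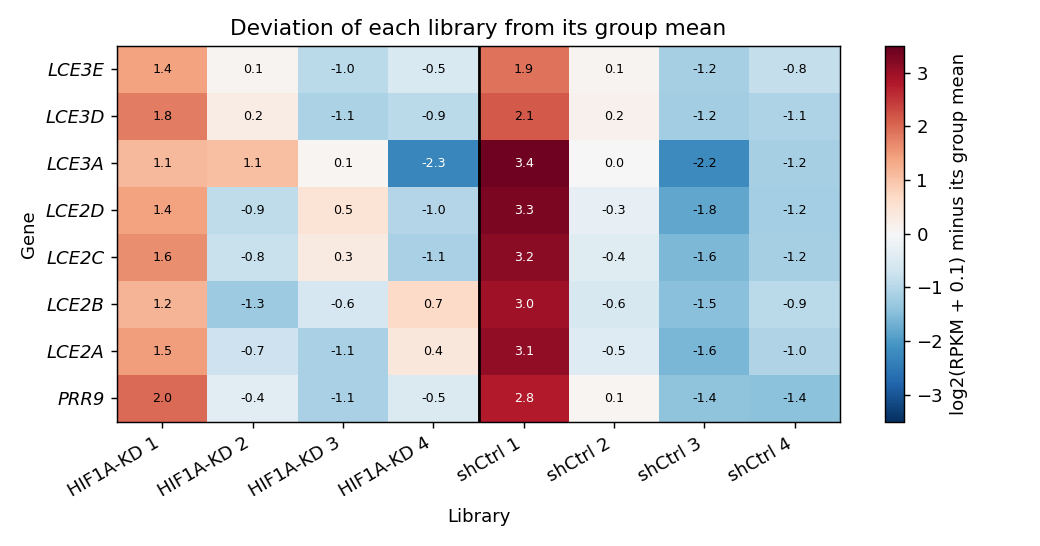
Deviation of each of the 8 detected genes from its group mean, in log2(RPKM + 0.1), for every library, with HIF1A-KD libraries left of shCtrl libraries. Library 1 is above the mean of its group for all 8 genes in both groups, and LCE2A with LCE2B and LCE2C with LCE2D part between HIF1A-KD 3 and HIF1A-KD 4.

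The other LCE genes and their neighbours that could be tested lay below 0 as well, with a smaller median. Their list and those that follow were chosen with earlier results of these data known, so nothing is read from their counts of calls. Of 13 listed neighbours 10 were tested and all 10 had a log2 change below 0, with a median of −2.09 beside 0.0637 over all tested genes. The estimates ran from −2.86 for LCE1E to −1.17 for LCE5A, and LCE1A, LCE1B, LCE1C, LCE1D, LCE1F, LCE6A and KPRP (keratinocyte proline-rich protein) lay between these. By library number, HIF1A-KD was higher in number 3 for LCE1A, LCE1B, LCE1C, LCE1D, LCE1F and LCE6A, and in number 4 for LCE5A. Without shCtrl 1 the estimates of the 10 ran from −1.95 for LCE1E to −0.32 for LCE5A. None of the 10 passed the unpaired test, and 1 passed with the block (1.83% of all tested genes). That gene, CRCT1, stood at 2067, 1271, 292 and 437 RPKM in HIF1A-KD 1 to 4, against 5776, 2420, 1285 and 1223 RPKM in shCtrl 1 to 4 (log2 change −1.51, adjusted p = 0.0224 in limma with the block). The HIF1A-KD library of CRCT1 was lower in each of the 4 numbers, and its call was lost when library 1 or 2 of either group or HIF1A-KD 4 was left out. LCE1E, an LCE gene of the group known from normal skin, was the only tested neighbour whose groups did not overlap. The share not overlapping with HIF1A-KD lower was 2.13% over all tested genes.

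Other precursors in the complex gave calls in both directions. Among 12 tested members of the SPRR family and other envelope precursors none passed the unpaired test, and the median log2 change was −0.229. With the block 1 fell (SPRR2G) and 1 rose (SPRR1A), beside 1.09% and 0.74% of all tested genes. The estimates ran from −2.92 for LOR (loricrin) to 1.57 for SPRR3. Neither LOR nor SPRR3 passed either test (adjusted p = 0.659 and 0.309 in unpaired limma, 0.169 and 0.107 with the block). SPRR2G, a small proline-rich precursor, stood at 703, 381, 280.5 and 264 RPKM in HIF1A-KD 1 to 4, against 5139, 1507, 1175 and 1462 RPKM in shCtrl 1 to 4 (log2 change −2.35, adjusted p = 0.00435 in limma with the block). SPRR1A, of the same family, stood at 2617, 2582, 2884 and 3596 RPKM in HIF1A-KD 1 to 4, against 1154, 785, 1416 and 1218 RPKM in shCtrl 1 to 4 (log2 change 1.37, adjusted p = 0.0113 in limma with the block). Of the 12 the groups did not overlap for 1 with HIF1A-KD lower (SPRR2G), beside 2.13% of all tested genes. They did not overlap for 2 with HIF1A-KD higher (SPRR1A and SPRR3), the other way round from the LCE genes. CRNN, a fused S100-type gene, likewise had groups that did not overlap, with HIF1A-KD higher. The share of all tested genes in that direction is not given here. The abundant SPRR1B and SPRR2E had log2 changes of −0.14 and −0.32 and passed neither test, and both estimates crossed 0 when single libraries were left out. Of 4 tested fused S100-type genes and 13 tested S100 genes none passed either test. CRNN, which encodes cornulin, had a log2 change of 1.42 (adjusted p = 0.525 unpaired and 0.178 with the block, limma), and the change of RPTN (repetin) was −0.05. For S100A9 and S100A11 the log2 changes were 0.38 and 0.03, and the signs of RPTN and S100A11 turned in some of the other settings. Over the 39 tested genes of the complex outside the set 8 had an unadjusted p under 0.05 in the unpaired fit. The call of SPRR2G was lost when library 2 of either group was left out, and that of SPRR1A when library 1 or 2 of either group was. The 3 calls with the block (CRCT1, SPRR2G and SPRR1A) became 0 when HIF1A-KD 2 or shCtrl 2 was left out, and 1 when HIF1A-KD 1 or shCtrl 1 was. Leaving out HIF1A-KD 3 or shCtrl 3 gave 7 and 9 calls, and leaving out HIF1A-KD 4 or shCtrl 4 gave 2 and 5.

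**Figure D4:**
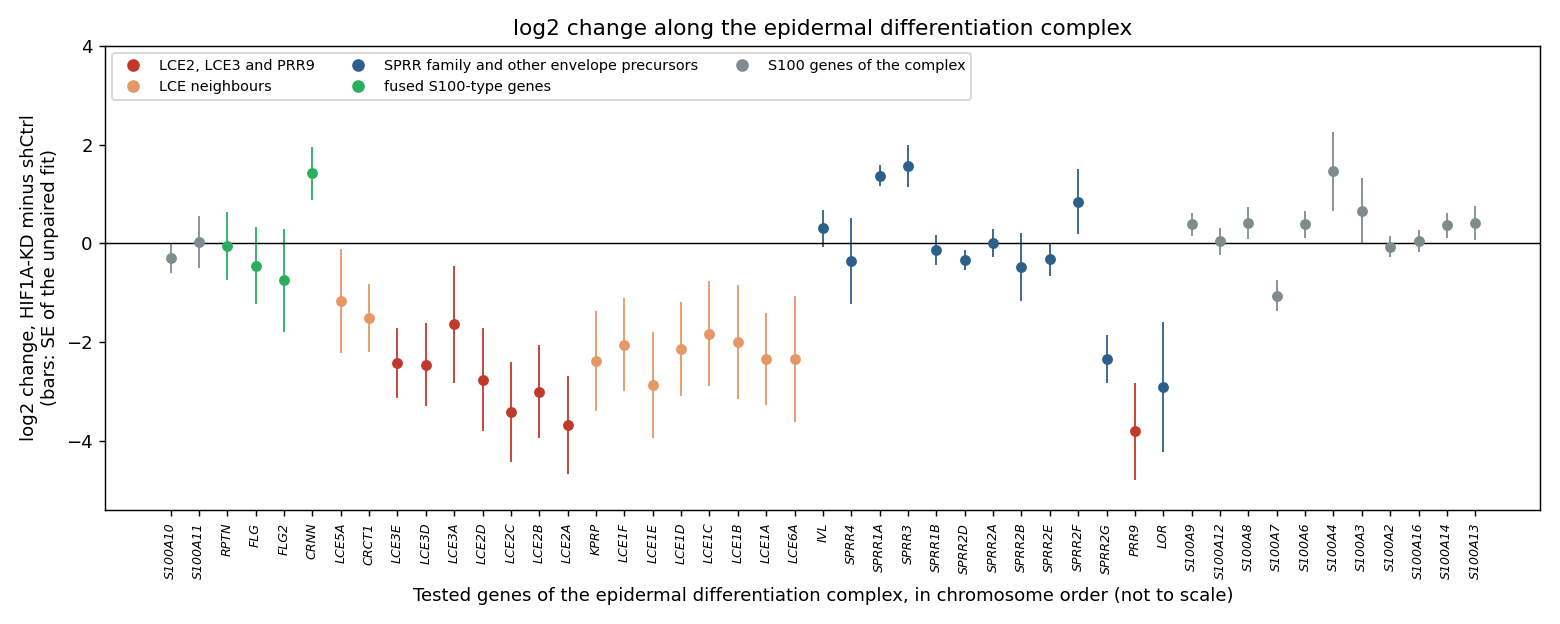
Log2 change, HIF1A-KD minus shCtrl, of each tested gene of the epidermal differentiation complex in chromosome order, with bars for the SE of the unpaired fit. The LCE2, LCE3 and LCE1 genes form a run below 0 from LCE5A to LCE6A. PRR9, LOR and SPRR2G lie low beyond it, and SPRR1A and SPRR3 lie above 0 at 1.37 and 1.57.

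Among the differentiation genes listed outside the complex, those on the granular layer list gave the calls. The lists were chosen with earlier results of these data known, so nothing is read from their counts of calls. Of 44 tested genes for envelope crosslinking, granular layer and epidermal regulation, none passed the unpaired test (11 had an unadjusted p under 0.05), and with the block 6 fell and 1 rose, beside 1.09% and 0.74% of all tested genes. All 7 were among the 20 tested genes of the granular layer list, which also holds KRT1 and KRT10, keratins of early differentiation. CDSN, which encodes the desmosome protein corneodesmosin, had a log2 change of −2.72 (adjusted p = 0.00488 in limma with the block) and had 13.9, 3.84, 3.08 and 1.99 RPKM in HIF1A-KD 1 to 4, against 142, 29.5, 13.5 and 12.1 RPKM in shCtrl 1 to 4. WFDC12, a secreted protease inhibitor gene, had a log2 change of −2.67 and SERPINA12, a serpin gene, one of −2.58 (adjusted p = 0.00435 and 0.0287 in limma with the block). KRT10, the keratin of early differentiation, rose with a log2 change of 2.30 (adjusted p = 0.0432 in limma with the block), while its partner KRT1, at 0.91, and SPINK5, a protease inhibitor gene at 0.63, passed neither test. The call of KRT10 was lost when any of libraries 1 to 3 of either group was left out, that of SERPINA12 for libraries 1 and 2, that of CDSN for library 2 and that of WFDC12 for HIF1A-KD 2. None of 7 tested crosslinking and scaffold genes, which include TGM1 and TGM3 for transglutaminases, and none of 17 tested epidermal regulators passed either test. The crosslinked protease inhibitor gene CSTA spanned 2858 to 4364 RPKM in HIF1A-KD and 2136 to 3320 RPKM in shCtrl, and DSP, for desmoplakin, 396 to 537 RPKM in HIF1A-KD and 429 to 579 RPKM in shCtrl. Of the regulators, the AP-1 genes JUNB and FOSL1 were the most abundant, at 242 to 394 and 38.4 to 345 RPKM in HIF1A-KD, against 241 to 327 and 66.5 to 281 RPKM in shCtrl. Leaving out HIF1A-KD 2 left none of the 7 calls, and the count was 1 when shCtrl 2 was omitted, 2 for shCtrl 1 and 4 for HIF1A-KD 1. The adhesion gene CDH1, a squamous marker, fell with the block (log2 change −0.79, adjusted p = 0.0318, limma), and that call was lost without any one of libraries 1 to 3 of either group.

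VWF, a gene used as an endothelial marker, was also highest in library 1 of both groups. VWF stood at 12.6, 4.98, 1.39 and 1.47 RPKM in HIF1A-KD 1 to 4, against 15.3, 1.76, 1.126 and 0.652 RPKM in shCtrl 1 to 4. Its deviations from the group means had an r of 0.931 with those of the 8 detected members and its levels an r of 0.474 (n = 8 libraries), and in numbers 2 to 4 it was higher in HIF1A-KD. PECAM1 and CDH5, defining endothelial genes, reached at most 0.00492 and 0.0106 RPKM in HIF1A-KD and at most 0.00464 and 0.0112 RPKM in shCtrl. The endothelial list of 4 summed to 1.39 to 12.8 RPKM in HIF1A-KD and 0.748 to 15.4 RPKM in shCtrl. Fibroblast markers summed to 14.1 to 19.2 RPKM in HIF1A-KD and 21.2 to 27.7 RPKM in shCtrl, nearly all of it COL1A1, and leukocyte markers, nearly all of it CD68, to 19.1 to 86.5 RPKM in HIF1A-KD and 23.5 to 115 RPKM in shCtrl. Melanocyte markers summed to 0.26 to 1.95 RPKM in HIF1A-KD and 0.342 to 0.9 RPKM in shCtrl. MLANA and TYR of the melanocyte list were listed at 0 in all 8 libraries. The fibroblast markers other than COL1A1 stayed at or below 0.132 RPKM in every library, with PDGFRA the highest. Whether any such cells were present was not tested, nor was any part of them in the LCE and PRR9 levels.

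Among the genes ranked outside the set, the levels most like the mean of the 8 detected genes were those of OSMR, the oncostatin M receptor gene. Among 11390 genes ranked over 8 libraries it had the highest Pearson's r of log2 levels (0.997, Spearman's rho 1) and the highest r of deviations from the group means (0.997). Without the 2 libraries farthest from the median the r was 0.988 for levels and 0.974 for deviations. OSMR stood at 12.8, 7.71, 7.54 and 7.0 RPKM in HIF1A-KD 1 to 4, against 34.5, 15.4, 10.8 and 13.1 RPKM in shCtrl 1 to 4, so it spanned a far narrower range than any of the LCE genes. By levels the next ranked were KLK9 (a kallikrein-related peptidase), CPA4 (a carboxypeptidase), ELOVL4 (an elongase of very long fatty acids), BTBD3 and PXDN (peroxidasin). Their r ran from 0.973 to 0.983. Genes without a readable length were not ranked, and CDSN, one of these, had an r of 0.988 for levels and 0.975 for deviations. By deviations the next ranked were TBC1D10B, AZGP1 (zinc-alpha-2-glycoprotein), PAPL, ABCA12 (a lipid transporter of keratinocytes) and DOT1L (a histone methyltransferase). Their r ran from 0.981 to 0.996. The estimates of those 5 had either sign, since the log2 change was −2.66 for AZGP1 and 0.39 for DOT1L. These genes were picked from a ranking over 8 libraries with library 1 high in both groups, and 1 in 100 of all ranked genes reached an r of 0.896 for levels and 0.941 for deviations.

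**Figure D5:**
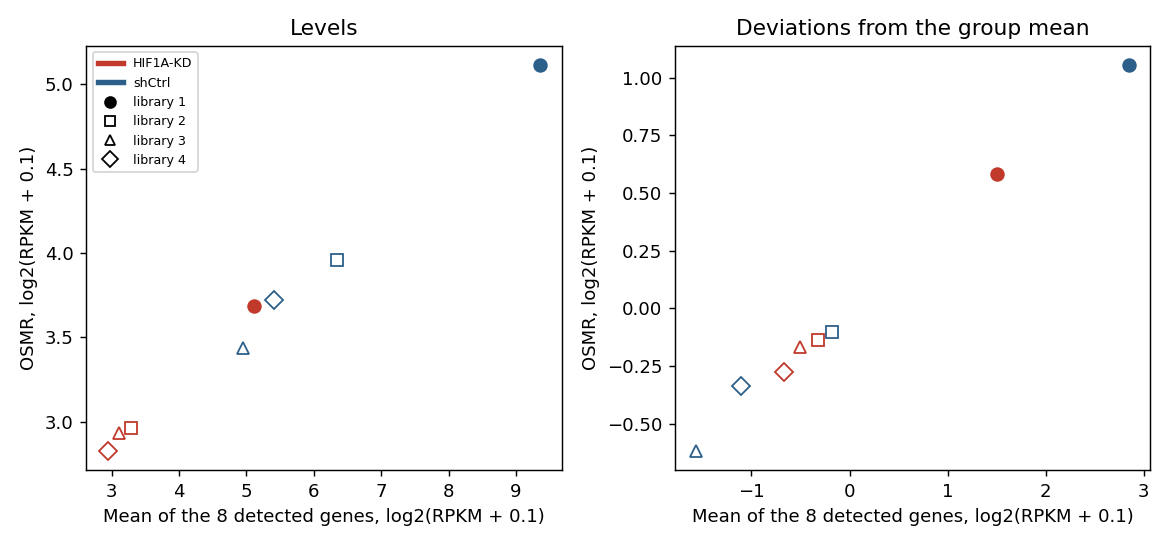
Log2(RPKM + 0.1) of OSMR against the mean log2(RPKM + 0.1) of the 8 detected LCE and PRR9 genes in each of the 8 libraries, HIF1A-KD listed before shCtrl. The points rise together from HIF1A-KD 4 to shCtrl 1 (Pearson's r 0.997, n = 8), and shCtrl 1 lies farthest out.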

How the data were processed

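RNA-seq of 8 libraries was used. Per the submitters' processing notes, reads passed through bcl2fastq and FastQC (0.11.5), then TopHat2 (2.0.13) with Bowtie2 (2.2.3.0), SAMtools (1.3.1), Picard (1.129) and finally HTSeq (0.6.1), listed there without roles. The strand setting of the counting was not given in the sources used here. RPKM per gene and library were deposited by the authors in a table labelled as counts. Multiplied by gene length, these gave whole reads for 100% of values (tolerance 0.01 read), so totals were recovered. The authors' deposited comparison holds a signal for each group, a shrunken fold ratio with its log2, and p-values, from a tool that no source used here names. Coordinates in the expression table were taken as hg19, while the RefSeq and GENCODE sequences are GRCh38 and were matched by symbol (9 of 9 members).

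The 11899 genes that reached 0.5 RPKM in 4 or more libraries were fitted on log2(RPKM + 0.1) in limma (3.58.1, under R 4.3.3), with a mean-variance trend, robust moderation, two-sided tests and no block. P-values were adjusted by Benjamini-Hochberg over all tested genes, with a threshold of 0.05. Log2 changes understate the change of low genes because of the pseudocount. Deviations from the group means correlated across genes between the libraries of each number (r of 0.754, 0.730, 0.252 and 0.257 for numbers 1 to 4, all over 0.1), so the number was taken as a pairing, which the labels do not state. For numbers 3 and 4 it is uncertain, since shCtrl 4 was closer to HIF1A-KD 3 (0.613) and shCtrl 3 to HIF1A-KD 4 (0.463). Sequences were searched with Python 3.11.15 and compared with Biopython 1.88. The members and lists were chosen with earlier results of these data known. Named genes were the members, HIF1A, every LCE neighbour, and up to 4 called and the 2 most abundant uncalled genes of each list. Added to these were the 6 most like of the ranked genes by level and by deviation. Genes without a readable length, or with names starting LOC, LINC, MIR or SNOR, were not ranked. Alternatives changed the pseudocount, filter, scaling, test, block and libraries.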

Additional observations from a re-analysis of the deposited data

Results flagged for a closer look

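In 25 of the 72 groups of 4 libraries checked, 1 library stood apart from the other 3 on the linear RPKM scale, its gap to the nearest of the others, as a share of the group's range, being over Dixon's 95% critical value. Chance flags about 1 in 20 groups only where values are normally distributed, which was not tested for linear RPKM. The genes are not independent either, since library 1 was the one that stood apart in all 25. It was shCtrl 1 in 21 of them, and on the log2 scale 4 of the 25 passed the same limit.

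Among the members, PRR9 stood apart in HIF1A-KD 1 with 12.5 RPKM, and in shCtrl 1 with 303.5 RPKM. In shCtrl 1 the outlying values were 196.9 RPKM for LCE2A, 509.9 RPKM for LCE2B, 412.7 RPKM for LCE2C, 484.1 RPKM for LCE2D and 248.5 RPKM for LCE3A. LCE3D and LCE3E, the most abundant members, were not among them in either group.

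Among the LCE neighbours, the values of shCtrl 1 that stood apart were 604 RPKM for LCE1A, 262 RPKM for LCE1B, 466 RPKM for LCE1C, 218 RPKM for LCE1D, 115 RPKM for LCE1E and 503 RPKM for LCE1F. Those of LCE5A, LCE6A and KPRP were 5.85, 223 and 675 RPKM. Elsewhere shCtrl 1 stood apart with 5139 RPKM for SPRR2G, 227 RPKM for RPTN, 1217 RPKM for WFDC12 and 15.3 RPKM for VWF. CDSN stood apart in HIF1A-KD 1 with 13.9 RPKM and in shCtrl 1 with 142 RPKM. SERPINA12 did so in HIF1A-KD 1 with 2.31 RPKM and in shCtrl 1 with 27.4 RPKM. OSMR stood apart in HIF1A-KD 1 with 12.8 RPKM. The cause was not tested.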

How the results depend on the processing

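All 208 log2 changes of the 8 detected members stayed below 0 and moved by less than 1 SD over 26 alternatives, 25 of them planned. The members were chosen on this contrast, and the block over all libraries and the filters leave their estimates unchanged. With the block, leaving out either library of a number takes that number out of the estimate, so some alternatives repeat each other. The alternative without both libraries numbered 1 was chosen after seeing the data. The median of the 9 members ran from −3.99 (libraries numbered 1 and 2 only) to −1.80 (without shCtrl 1). The unpaired fit called 5 genes over the whole table. It called 3 with a pseudocount of 1, with 0.01 and with limma-voom on the recovered reads, 1 with no filter, 8 with median-of-ratios scaling and 0 with libraries numbered 1 and 2 only. With the library number as a block it called 218, and it called 0 to 239 over all fits that left out 1 library. With the block 3 other genes of the complex, 7 differentiation genes outside it and HIF1A (log2 change −1.34, adjusted p = 0.0253, limma) were called. Leaving out 1 library gave 0 to 9 for the complex, 0 to 9 outside it and −1.59 to −1.07 for HIF1A. The complex had 1 call with libraries numbered 3 and 4 only, and the complex and the genes outside it had 1 each without both libraries numbered 1. The sign of RPTN (−0.05) turned to 0.26 with libraries numbered 1 and 2 only and to 0.12 without both numbered 1, and single omissions gave −0.50 to 0.58. The sign of S100A11 (0.03) turned to −0.046 with median-of-ratios scaling, −0.12 with libraries numbered 3 and 4 only and −0.057 without both numbered 1, and single omissions gave −0.30 to 0.33. Single omissions gave −0.31 to 0.049 for SPRR1B and −0.51 to 0.0004365 for SPRR2E. The cause was not tested. Counts at 0 limit LCE3C to under 3 reads per library.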
